A study of Drosophila melanogaster with 24 samples.

Results

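The wild-derived strain Zimbabwe-109 was compared with the laboratory strain Oregon-R of Drosophila melanogaster at each of 2 stages, separately in late 3rd instar larvae (labelled 18BPF) and in white prepupae (labelled PF). The comparison was defined by the samples' labelled strain and stage and used 12 of the 24 arrays of the series, 3 for each strain and stage. The other 12 arrays held the strains Canton-S and Samarkand at the same stages, and they entered the fit and served as a reference for stage. No mutation, transgene or treatment is named for any group. All animals were raised at 25 °C under constant light, on cornmeal food holding 0.05% bromophenol blue. Each replicate was total RNA of a pool of frozen whole animals, of a sex that the labels do not state, hybridised to 1 single-colour (cy3) array. RNA of each strain was extracted in a separate procedure, so strain and extraction cannot be told apart. Nor can fewer cells of a type be told apart from less RNA per cell, since whole animals were ground.

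The transition that these stages enclose is driven by a pulse of the steroid hormone ecdysone. At its end the late larva stops wandering, turns its cuticle into the puparium and becomes a white prepupa. Nuclear receptors for the hormone switch on early regulatory genes, and sets of larval genes are turned off while prepupal ones are turned on.

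The arrays measured 16637 transcripts, listed by FlyBase identifier. The median deposited intensity of the 12 arrays ran from 2176 to 3289, and log2 values were quantile normalized before any comparison, so that every level below is a log2 intensity and every difference is Zimbabwe-109 minus Oregon-R. A difference of 1 is 2-fold. A difference passed the test when its p-value from limma, with Benjamini-Hochberg adjustment across the whole table, was below 0.05. The median SD of the 3 arrays was 0.04 in Oregon-R larvae, 0.11 in Oregon-R prepupae, 0.12 in Zimbabwe-109 larvae and 0.08 in Zimbabwe-109 prepupae. Only 44 identifiers could be tied to gene names, 16 to 1 gene and 28 to several genes read from 1 transcript, so most results are counts over unnamed transcripts. Of 28 gene lists, 23 had no member among these, and every list of tissue markers was among the 23. The tissue make-up of the samples was therefore not checked.

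Arrays of Zimbabwe-109 were not all alike. A stage position was computed for each array from the 149 transcripts that rose and the 579 that fell at least 2-fold from larva to prepupa in both Canton-S and Samarkand, with 0 as the mean of the larvae of those strains and 1 as the mean of their prepupae. Oregon-R larvae of replicates 2, 3 and 5 stood at 0.317, 0.342 and 0.283. Zimbabwe-109 larvae of replicates 1, 3 and 4 stood at 0.108, 0.202 and 0.335. Replicate 4 thus lay among the Oregon-R larvae, and the other 2 lay between Oregon-R and the larvae of Canton-S and Samarkand, whose arrays ranged from -0.062 to 0.087. Oregon-R prepupae stood at 1.01, 0.986 and 1.00 for replicates 2, 3 and 5, and Zimbabwe-109 prepupae at 0.790, 0.958 and 0.956 for replicates 2, 3 and 4. Prepupal replicate 2 of Zimbabwe-109 was the lowest of all 12 prepupal arrays. Group means were 0.314 ± 0.029 (SD, n = 3) in Oregon-R larvae, 0.215 ± 0.114 in Zimbabwe-109 larvae, 0.999 ± 0.013 in Oregon-R prepupae and 0.901 ± 0.096 in Zimbabwe-109 prepupae. The ranges of the strains overlapped in larvae and did not overlap in prepupae. With transcripts that changed at least 1.5-fold they overlapped in prepupae too, where Oregon-R ran from 0.984 to 1.04 and Zimbabwe-109 from 0.876 to 1.00. The main counts below are given also without larval replicate 4 and prepupal replicate 2 of Zimbabwe-109. Leaving them out raised the median SD of Zimbabwe-109 larvae from 0.12 to 0.14 and lowered that of the prepupae from 0.08 to 0.04.

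**Figure D1:**
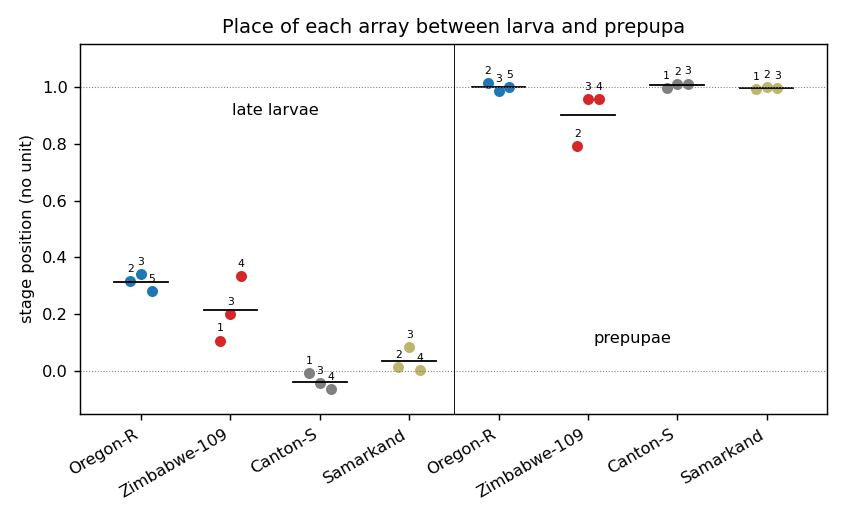
Stage position of each of the 24 arrays (vertical axis, no unit, 0 is the mean of Canton-S and Samarkand larvae and 1 that of their prepupae) by strain and stage, with replicate numbers beside the points and bars at group means. Oregon-R larvae sit at 0.283 to 0.342, above the Canton-S and Samarkand larvae, and Zimbabwe-109 prepupal replicate 2 sits at 0.790, below all other prepupae.

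In late larvae, 5325 transcripts passed the test, 32.0% of those measured. Of these, 2431 (14.6%) were higher and 2894 (17.4%) lower in Zimbabwe-109. Most differences were small: the median size among those that passed was 0.33, and 77.0% were under 0.5. At least 2-fold differences numbered 178 (1.07%), 116 of them higher and 62 lower in Zimbabwe-109. The 3 arrays of one strain lay entirely above those of the other for 8011 transcripts (48.2% of all), and for 98.1% of the transcripts that passed. Without the 2 Zimbabwe-109 arrays named above, 4860 passed (29.2%), 2192 higher (13.2%) and 2668 lower (16.0%), and 197 differed at least 2-fold (1.18%).

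In prepupae, 4453 transcripts passed, or 26.8%, with 2258 (13.6%) higher and 2195 (13.2%) lower in Zimbabwe-109. The median size among them was 0.32, and 80.4% were under 0.5. At least 2-fold differences were fewer than in larvae, at 91 (0.547%), 48 higher and 43 lower. The arrays of the strains did not overlap for 5877 transcripts (35.3%). Without the 2 arrays 3982 passed (23.9%), 2136 higher (12.8%) and 1846 lower (11.1%), and 87 differed at least 2-fold (0.523%), 35 higher and 52 lower, so that the larger side changed. The share of higher calls depended on scaling: it was 45.7% in larvae and 50.7% in prepupae, but 73.1% of 739 calls and 33.4% of 383 calls when arrays were left unscaled.

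Sorted by stage, 2528 transcripts passed in larvae only (15.2%), 1656 in prepupae only (9.95%), and 2712 at both stages with 1 sign (16.3%), of which 1305 were higher and 1407 lower in Zimbabwe-109. Another 85 passed at both stages with opposite signs (0.511%), and 9656 passed at neither. Passing at 1 stage is not in itself a difference between stages. Among the larva-only transcripts 78.8% had the same sign in prepupae, and the median size of the difference was 0.30 in larvae and 0.10 in prepupae. Among the prepupa-only transcripts 76.9% had the same sign in larvae, with median sizes of 0.10 and 0.28 in larvae and prepupae. Across all transcripts, which are not independent replicates, the differences of both stages correlated with r = 0.65, and r was 0.51 without the 2 arrays. Without these arrays the classes held 2724 larva-only, 1846 prepupa-only and 2009 (12.1%) same-sign transcripts, and 127 with opposite signs. Of the transcripts sorted with all arrays, 80.4% of the larva-only, 77.7% of the prepupa-only, 72.7% of the same-sign and 72.9% of the opposite-sign class kept their class. Single arrays also moved the classes: larva-only fell to 1683 without Oregon-R larval replicate 3, and prepupa-only to 1064 and 1085 without Zimbabwe-109 prepupal replicates 3 and 4. The main fit shares 1 estimate of spread between the stages. With each stage fitted on its own 6 arrays, 2975 transcripts were larva-only, 655 prepupa-only and 1586 of the same sign.

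**Figure D2:**
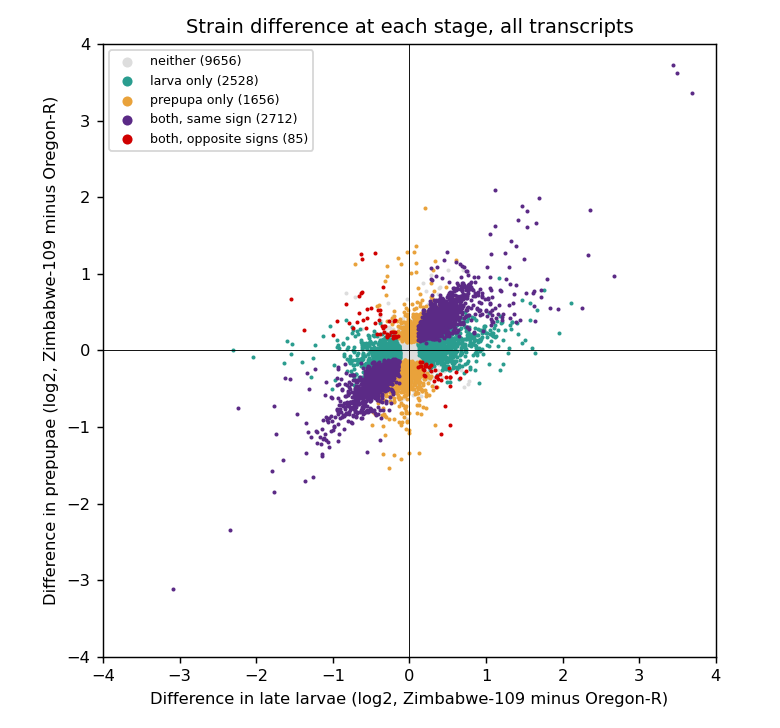
Difference in late larvae (horizontal axis, log2, Zimbabwe-109 minus Oregon-R) against the difference in prepupae (vertical axis, same unit), 1 point for each of 16637 transcripts, coloured by class. The 2712 same-sign transcripts lie along the diagonal, 3 of them above 3 at both stages, while the larva-only and prepupa-only classes lie along the axes.

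The prepupal difference was then tested directly against the larval one. It differed for 702 transcripts (4.22%), with 311 (1.87%) more positive and 391 (2.35%) more negative in prepupae, and 2849 had an unadjusted p below 0.05. At least 2-fold changes numbered 91 (0.547%), 47 more positive and 44 more negative, or 169 (1.02%) without the 2 arrays, 49 and 120. The strain difference was the larger one in larvae for 443 of the 702 and in prepupae for 259. All 85 opposite-sign transcripts passed this test, as did 320 of the larva-only class (12.7%), 187 of the prepupa-only class (11.3%), 104 of the same-sign class and 6 that passed at neither stage. Most transcripts sorted to 1 stage were thus not shown to differ between stages. Among the larva-only transcripts with at least a 2-fold larval difference, 40 of 60 passed, and among the corresponding prepupa-only ones 17 of 24. Without the 2 arrays 1334 transcripts passed (8.02%), 638 (3.83%) more positive and 696 (4.18%) more negative, and 622 of the 702 were among them. Leaving out prepupal replicate 2 of Zimbabwe-109 alone gave 1312. Leaving out Zimbabwe-109 larval replicate 3 or Oregon-R prepupal replicate 3 gave 795 and 742. The other 9 arrays gave fewer than 702 when left out, with the lowest counts 459 without Oregon-R larval replicate 2, 445 without Oregon-R larval replicate 3, 449 without Zimbabwe-109 prepupal replicate 3 and 455 without Zimbabwe-109 prepupal replicate 4. A fit of the 12 arrays of these strains alone called 315.

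**Figure D3:**
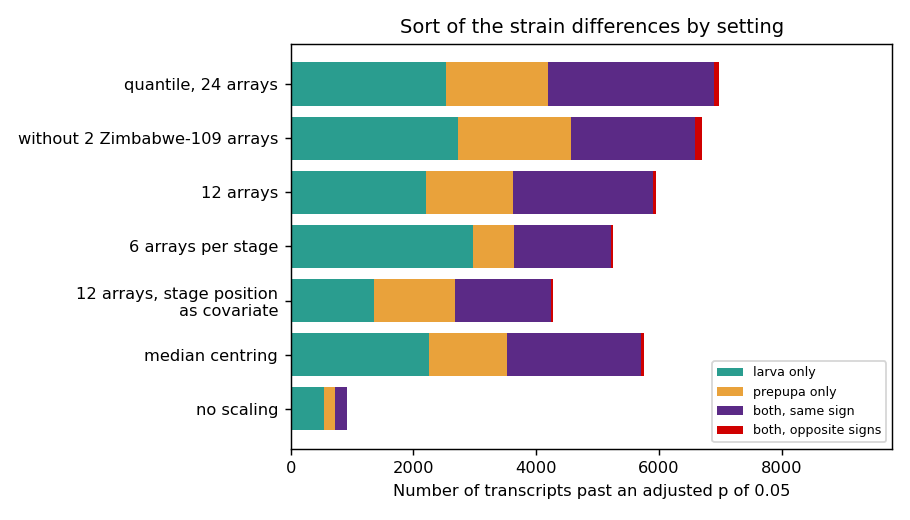
Number of transcripts (horizontal axis) in each class of the sort under 7 settings of scaling, arrays and fit (vertical axis). The same-sign class holds 2712 in the main fit, 2009 without the 2 Zimbabwe-109 arrays and 199 with no scaling.

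Transcripts that change most between the stages were a small part of all that differed between the strains. Those that fall were called more often than the whole table in larvae, and those that rise were called more often in prepupae. Of the 579 that fell at least 2-fold from larva to prepupa in Canton-S and Samarkand, 311 differed between the strains in larvae (53.7%, against 32.0% of all), 248 of them higher and 63 lower in Zimbabwe-109, with a median difference of 0.30 over the set. In prepupae 127 of the 579 differed (21.9%, against 26.8% of all), 96 higher and 31 lower, with a median of 0.10. Without the 2 arrays the larval median was 0.34 and the prepupal one -0.03. Of the 149 that rose, 55 differed in larvae (36.9%, against 32.0% of all), 18 higher and 37 lower, with a median of -0.09. In prepupae 56 of the 149 differed (37.6%, against 26.8% of all), 9 higher and 47 lower, with a median of -0.17. Without the 2 arrays the medians of the rising set were -0.20 in larvae and -0.12 in prepupae. There, 76 of the 149 differed in larvae, 13 higher and 63 lower. In Zimbabwe-109 larvae the median transcript of the falling set thus stood higher, and that of the rising set lower, than in Oregon-R larvae. These sets were chosen on other strains, and their levels also set the stage positions.

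Both sets together were 4.38% of all transcripts. They made up 149 of the 702 whose strain difference differed between stages (21.2%), 91 of the 320 among these that passed in larvae only (28.4%), and 40 of the 60 larva-only transcripts with at least a 2-fold difference (66.7%). Of the prepupa-only transcripts with at least a 2-fold difference they made up 14 of 24 (58.3%), and of the 47 same-sign transcripts with at least a 2-fold difference at both stages 9 (19.1%). Over all 2712 same-sign transcripts they made up 82 (3.02%). Among the 5644 transcripts whose stage change passed the test in neither Canton-S nor Samarkand, 1482 differed between the strains in larvae (26.3%), 1285 in prepupae (22.8%) and 73 between the stages (1.29%). With the stage position of each array as a covariate in the fit of the 12 arrays, 2970 transcripts passed in larvae, 2912 in prepupae and 1562 at both stages with 1 sign. The same fit without the covariate called 4531, 3752 and 2275. Stage position went partly with strain, since the ranges of the strains did not overlap in prepupae. The lower counts therefore cannot show how many strain differences are differences of stage.

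The arrays of Canton-S and Samarkand show which of the compared strains each lay nearer. Among the larva-only transcripts, both other strains lay nearer Zimbabwe-109 than Oregon-R in larvae for 53.4%, and both nearer Oregon-R for 20.8%. Over all transcripts these shares were 38.7% and 35.1%. Among the same-sign transcripts the order was the other way, with 28.4% nearer Zimbabwe-109 and 40.5% nearer Oregon-R in larvae. In prepupae these shares were 18.8% and 40.3%, near the 20% and 35% of all transcripts. Among the prepupa-only transcripts 11.8% lay nearer Zimbabwe-109 and 45.2% nearer Oregon-R in prepupae, against 20% and 35% of all. The larva-only transcripts, measured in prepupae, had 24.7% nearer Zimbabwe-109 and 29.2% nearer Oregon-R. For larva-only transcripts in larvae, Oregon-R was thus the strain farther from both others more often than over all transcripts. For the same-sign transcripts in larvae and the prepupa-only ones in prepupae, Zimbabwe-109 was. Oregon-R larvae also stood farthest from Canton-S and Samarkand in stage position, and the part of that in these shares was not tested.

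At both stages 47 transcripts differed at least 2-fold with 1 sign (0.283%), 21 higher and 26 lower in Zimbabwe-109. For all 47 the arrays of the strains did not overlap at either stage, against 48.2% of all transcripts in larvae and 35.3% in prepupae. All 47 passed at both stages without the 2 arrays. The 47 were chosen on these same arrays, so neither count is separate support. Not all of them stayed at least 2-fold without the 2 arrays. The prepupal difference was then 0.69 for FBtr0076913, 0.76 for FBtr0072634 and 0.89 for FBtr0076992, and the larval one -0.98 for FBtr0114067. With all arrays the test between stages called 6 of the 47. For 18 of the 47, both other strains lay nearer Oregon-R at both stages, and 12 of these 18 were higher in Zimbabwe-109. For 5, both lay nearer Zimbabwe-109. In another 6 Canton-S lay with Oregon-R and Samarkand with Zimbabwe-109, in 5 the reverse held, and in 13 the pattern changed between stages. These patterns were not counted over all transcripts. By single stage, both lay nearer Oregon-R for 44.7% of the 47 in larvae and 48.9% in prepupae, against 35.1% and 35% of all. Both lay nearer Zimbabwe-109 for 23.4% and 14.9%, against 38.7% and 20% of all. In 5 of the 47 the dim strain was in the lowest 1% of levels at both stages, that is under 9.03.

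The widest differences, given by identifier because no gene name could be attached, set a dim strain against a bright one. The table holds no detection calls, so a dim level is not shown to lie above background, and folds against it depend on the floor of the arrays. FBtr0112473 read 9.29, 9.15 and 9.40 in Oregon-R larvae and 12.81, 13.20 and 12.91 in Zimbabwe-109 larvae. In prepupae it read 9.29, 10.06 and 9.47 in Oregon-R and 13.15, 12.75 and 12.98 in Zimbabwe-109. Zimbabwe-109 was higher by 3.69 ± 0.17 in larvae (SE, 12.9-fold, limma adjusted p = 4.01e-12) and by 3.35 in prepupae. Canton-S and Samarkand were at 12.66 and 12.79 in larvae, so Oregon-R was the strain apart. FBtr0084287 had the same arrangement, with Oregon-R larvae at 7.68, 7.68 and 7.57 and Zimbabwe-109 larvae at 10.92, 11.23 and 11.10. In prepupae Oregon-R read 7.68, 7.76 and 7.68 and Zimbabwe-109 11.64, 11.31 and 11.35, a difference of 3.72 ± 0.10 (13.2-fold, limma adjusted p = 2.84e-15). Its deposited intensity was 186 to 232 in Oregon-R and 2051 to 2889 in Zimbabwe-109, and the lowest value in the whole table was 156.

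FBtr0072462 was high in Zimbabwe-109 alone. Oregon-R larvae read 7.57, 7.57 and 7.68, and Zimbabwe-109 larvae 10.96, 11.30 and 11.05, a difference of 3.50 ± 0.07 (11.3-fold, limma adjusted p = 8.34e-18). In prepupae all 3 Oregon-R arrays read 7.57, the lowest level that the scaling assigns, and Zimbabwe-109 read 11.31, 11.10 and 11.16, which is 3.62 higher. Canton-S and Samarkand lay between 7.71 and 7.74 at both stages, next to Oregon-R. The standard error draws on the spread of all 8 groups, most of which lie near that lowest level. The SD was 0.18 and 0.11 in Zimbabwe-109 larvae and prepupae, 0.06 and 0 in those of Oregon-R, and 0.05 in each Canton-S and Samarkand group.

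In the opposite direction, FBtr0077873 read 10.94, 11.04 and 11.02 in Oregon-R larvae and 7.86, 8.03 and 7.86 in Zimbabwe-109 larvae. Its difference was -3.09 ± 0.10 in larvae (limma adjusted p = 1.01e-14) and -3.11 in prepupae. Canton-S (10.63 in larvae) lay with Oregon-R and Samarkand (8.35) with Zimbabwe-109, so the 4 strains fell into pairs. FBtr0071727 was low in Zimbabwe-109 alone. It read 10.35, 10.41 and 10.39 in Oregon-R larvae and 7.93, 8.26 and 7.93 in Zimbabwe-109 larvae, a difference of -2.34 ± 0.11 (limma adjusted p = 5.51e-12). Its prepupal difference was -2.35, and Canton-S and Samarkand larvae stood at 9.91 and 10.17. For none of these 5 transcripts did the difference change between stages beyond the threshold, with changes from -0.34 ± 0.24 to 0.28 ± 0.15.

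Other transcripts carried the strain difference at 1 stage, or turned it around. FBtr0071341 read 12.29, 12.34 and 12.38 in Oregon-R larvae and 10.65, 10.92 and 10.82 in Zimbabwe-109 larvae, a difference of -1.54 ± 0.10 (limma adjusted p = 5.74e-10). In prepupae the order was reversed, with 10.35, 10.25 and 10.08 in Oregon-R and 10.77, 11.07 and 10.86 in Zimbabwe-109, a difference of 0.67 ± 0.10 (limma adjusted p = 3.8e-05). The difference changed by 2.22 ± 0.14 between stages (limma adjusted p = 1.27e-08), or by 3.35 with normexp background correction. The arrays of the strains did not overlap at either stage. The Oregon-R mean was 12.34 in larvae and 10.23 in prepupae, and the Zimbabwe-109 mean 10.79 and 10.90. Canton-S and Samarkand larvae stood at 12.03 and 12.10, nearer Oregon-R. In prepupae Samarkand stood at 10.23, with Oregon-R, and Canton-S at 12.92, above both compared strains. The prepupal difference of FBtr0071341 was 0.60 without scaling and 1.17 with normexp, and without scaling it missed the threshold (adjusted p = 0.0854).

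FBtr0076666 stood at 12.77, 12.92 and 13.05 in Oregon-R larvae and at 10.55, 10.75 and 10.51 in Zimbabwe-109 larvae, a difference of -2.31 ± 0.15 (limma adjusted p = 8.97e-10). In prepupae it was low in both strains, at 9.32, 8.99 and 9.15 in Oregon-R and 9.67, 8.84 and 8.97 in Zimbabwe-109, where the arrays overlapped. The prepupal difference was 0.01, and the change between stages 2.32 ± 0.22 (limma adjusted p = 1.73e-06). Without the 2 arrays they were -0.25 and 2.01. Only 1.4% of transcripts lay below the prepupal mean of either strain, a level not shown to lie above background. Canton-S and Samarkand larvae were at 13.46 and 12.46, which leaves Zimbabwe-109 as the low strain in larvae.

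FBtr0079701 was higher in Zimbabwe-109 at both stages and more so in larvae. Larvae read 11.22, 11.24 and 11.14 in Oregon-R and 14.00, 13.84 and 13.75 in Zimbabwe-109, a difference of 2.67 ± 0.20 (limma adjusted p = 3.73e-09). Prepupae read 11.09, 10.75 and 11.04 in Oregon-R and 12.66, 11.57 and 11.54 in Zimbabwe-109, where replicate 2 gave the value of 12.66. The prepupal difference was 0.96, and 0.60 without that array. The prepupal call was lost in the fit of 6 arrays (adjusted p = 0.0724) and with the stage covariate (0.66, adjusted p = 0.0571). Its change between stages was -1.70 ± 0.28 (limma adjusted p = 0.000731), and -2.13 without the 2 arrays.

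FBtr0088189 read 10.73, 10.55 and 10.75 in Oregon-R larvae and 12.62, 12.79 and 12.46 in Zimbabwe-109 larvae, a difference of 1.95 ± 0.20 (limma adjusted p = 2.56e-07). In prepupae Oregon-R stood at 10.41, 10.76 and 10.58 and Zimbabwe-109 at 11.47, 10.49 and 10.47, with replicate 2 again the high one and the other 2 within the Oregon-R range. The prepupal difference of 0.23 did not pass (adjusted p = 0.438), and the change between stages was -1.72 ± 0.28 (limma adjusted p = 0.000674) or -2.13 without the 2 arrays. Canton-S and Samarkand larvae stood higher than either strain, at 14.05 and 13.45, and their prepupae at 11.09 and 11.42. The Oregon-R mean was 10.68 in larvae and 10.58 in prepupae, and thus nearly the same at both stages.

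**Figure D4:**
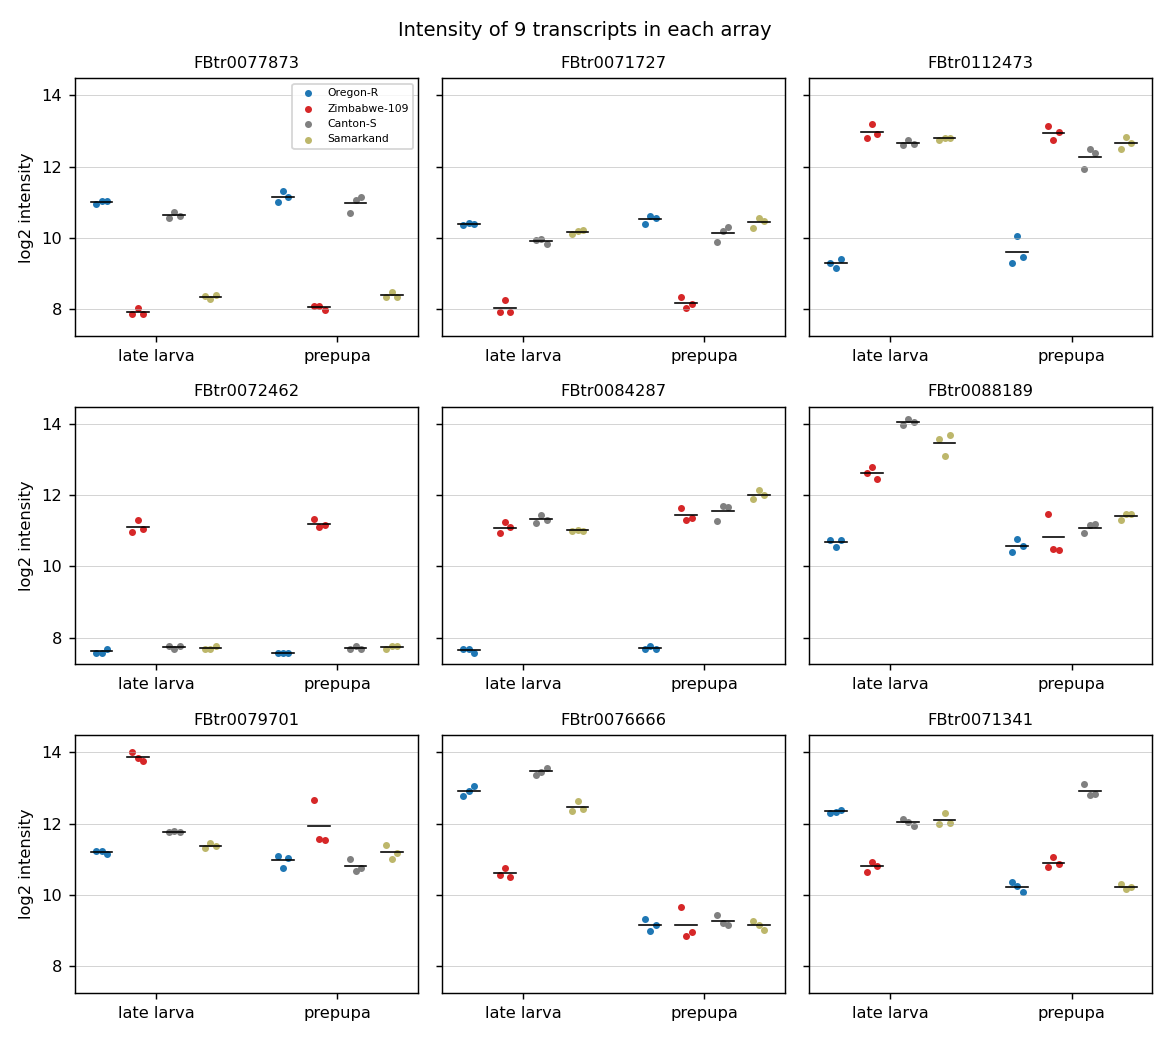
Log2 intensity (vertical axis) of the 9 transcripts given by identifier, by stage and strain, 1 point for each array and bars at the mean of 3 arrays. They were chosen for the widest strain difference within a stage or the widest change of it between stages. FBtr0072462 is high in Zimbabwe-109 alone, FBtr0084287 and FBtr0112473 are low in Oregon-R alone, and FBtr0071341 turns from -1.54 in larvae to 0.67 in prepupae.

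Of the 44 transcripts with gene names, 16 passed in larvae (36.4%, against 32.0% of all), 8 higher and 8 lower in Zimbabwe-109. In prepupae 11 passed (25.0%, against 26.8% of all), 4 higher and 7 lower. By the sort, 7 passed at both stages with 1 sign, 9 in larvae only, 4 in prepupae only and 24 at neither. The difference between stages passed for 2, and for 5 without the 2 arrays (against 8.02% of all). The 44 as a set thus passed at about the rate of the whole table, but this rate pools unlike groups. Of the 16 transcripts of 1 gene, 3 passed in larvae and 3 in prepupae (18.8% at each stage). Of the 28 transcripts of several genes, which were added with values known, 13 passed in larvae (46.4%) and 8 in prepupae (28.6%). The difference between these groups was not tested. The median difference of the 44 was -0.05 in larvae and below 0.01 in size in prepupae. Without scaling, 3 of the 29 named calls were kept, the larval and stage calls of the CG17325 transcript and the larval call of the ND-MNLL transcript. Where 1 transcript carries reading frames of several genes, all its genes are given, since 1 intensity cannot assign the difference to either frame.

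One named transcript had a difference that changed widely between stages. The transcript shared by CG17325 and CG42305 read 13.38, 13.45 and 13.38 in Oregon-R larvae and 11.85, 11.82 and 11.75 in Zimbabwe-109 larvae. In prepupae it read 11.09, 10.97 and 11.04 in Oregon-R and 11.21, 11.08 and 11.18 in Zimbabwe-109. Zimbabwe-109 was thus lower in larvae, with no overlap of arrays, while the prepupal arrays of the strains overlapped. The larval difference was -1.59 ± 0.06 (SE, limma adjusted p = 1.12e-13), the prepupal one 0.12 ± 0.06 (adjusted p = 0.13) and the change 1.72 ± 0.08 (limma adjusted p = 1.15e-10). Canton-S larvae stood at 13.51, near Oregon-R, and Samarkand larvae at 12.19. These calls held under every setting tried. The transcript of CG42374 and Mettl5, the latter a methyltransferase of ribosomal RNA, was the other: its larval difference was 0.23 ± 0.06, its prepupal one -0.14 ± 0.06 and the change -0.37 ± 0.08 (limma adjusted p = 0.00821). That change was -0.63 with normexp, and it missed the threshold in the fit of the 12 arrays (adjusted p = 0.0566). The prepupal difference passed without the 2 arrays (-0.18, adjusted p = 0.0366) and with normexp (-0.24, adjusted p = 0.0494), which makes it one of opposite signs there.

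Among metabolic enzymes and transporters, the transcript of Mvk, which encodes mevalonate kinase of the isoprenoid pathway, and CG33672 was lower in Zimbabwe-109 at both stages. It read 12.40, 12.39 and 12.32 in Oregon-R larvae and 11.73, 11.77 and 11.72 in Zimbabwe-109 larvae, a difference of -0.63 ± 0.05 (limma adjusted p = 1.7e-08). In prepupae it read 12.31, 12.38 and 12.44 in Oregon-R and 11.78, 11.97 and 11.91 in Zimbabwe-109, a difference of -0.49 ± 0.05 (limma adjusted p = 6.26e-07). The arrays did not overlap at either stage. Canton-S and Samarkand larvae lay between the strains, at 12.10 and 12.20. The transcript of CG42496 and Ppcdc, an enzyme of coenzyme A synthesis, was higher in larvae by 0.38 ± 0.07 (limma adjusted p = 0.000477), and its prepupal difference of 0.16 did not pass. Fatp1, a fatty acid transport protein and the only named member of a list on lipid transport, had differences of 0.18 and 0.08 that did not pass. NaPi-III, a phosphate transporter (0.22 and 0.27), and the transcript of Mocs2A and Mocs2B, the subunits of molybdopterin synthase (-0.08 and -0.12), did not pass either. In Fatp1 and NaPi-III the Zimbabwe-109 larval replicate 3 read 11.79 and 11.04 against 12.46 and 11.57 in replicate 1. Without replicate 3 their larval differences were 0.34 (adjusted p = 0.0406) and 0.36 (adjusted p = 0.0248).

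Mitochondrial proteins were read from 3 transcripts. The transcript of CG42497 and Tim10, a chaperone for proteins imported into the inner membrane, was higher in Zimbabwe-109 by 0.39 ± 0.06 in larvae (limma adjusted p = 5.71e-05) and 0.37 ± 0.06 in prepupae (limma adjusted p = 0.000135). That of CG45089 and ND-MNLL, a subunit of respiratory complex I, read 10.69, 10.63 and 10.70 in Oregon-R larvae and 11.14, 11.46 and 10.96 in Zimbabwe-109 larvae. The difference was 0.51 ± 0.10 (limma adjusted p = 0.000766) in larvae, 0.86 with normexp, and the prepupal difference of 0.12 did not pass. Its change between stages was -0.39 (adjusted p = 0.152) with all arrays and -0.61 (adjusted p = 0.00596) without the 2 arrays. The transcript of CG45085 and CG8026 was lower in prepupae by a difference of -0.32 ± 0.09 (limma adjusted p = 0.0138), and its larval value of -0.21 did not pass. The prepupal call was lost without Zimbabwe-109 prepupal replicate 3 (-0.28, adjusted p = 0.062) and with median centring (-0.29, adjusted p = 0.0843).

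In the ubiquitin system, Uba1, the ubiquitin-activating enzyme, and rdx, an adaptor of a cullin ubiquitin ligase, were the 2 named list members. Uba1 read 13.60, 13.25 and 13.46 in Oregon-R prepupae and 13.10, 13.11 and 13.12 in Zimbabwe-109 prepupae, a difference of -0.33 ± 0.08 (limma adjusted p = 0.00482). The prepupal call was lost in the fit of the 6 prepupal arrays (limma adjusted p = 0.0613) and with the stage covariate (limma adjusted p = 0.0581). The larval difference of Uba1 was -0.16 (adjusted p = 0.159). rdx was lower in Zimbabwe-109 larvae, with a difference of -0.27 ± 0.07 (limma adjusted p = 0.00441) that missed the threshold with median centring (adjusted p = 0.0504), and its prepupal value was -0.08. The transcripts of lmgA and lmgB and of CG42455 and vnc, grouped with these as genes of protein modification, passed at neither stage.

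Of the 2 named members of a list on insulin and growth signalling, both encode parts of the GATOR2 complex, which relays nutrient state to the kinase TOR. For mio the prepupal difference was -0.19 ± 0.07 (limma adjusted p = 0.0392) and the larval one -0.15 (adjusted p = 0.0888). The prepupal call was lost without the 2 arrays (-0.17, adjusted p = 0.134), and also without Oregon-R prepupal replicate 2 or 5 or Zimbabwe-109 prepupal replicate 2 or 4, with differences from -0.19 to -0.15. Wdr24 did not pass, at 0.06 in both stages.

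On a list of basement membrane and membrane skeleton, LanA and alpha-Spec were named. LanA, a laminin chain of the basement membrane, was higher in Zimbabwe-109 larvae, which read 13.26, 13.13 and 13.33 against 13.04, 12.97 and 13.04 in Oregon-R. The difference was 0.22 ± 0.06 (limma adjusted p = 0.00436) in larvae and 0.06 in prepupae, where it did not pass. The larval call was lost with the stage covariate (limma adjusted p = 0.0696). The alpha-Spec transcript, for spectrin of the membrane skeleton, had values of 0.24 ± 0.24 and -0.23 ± 0.24. Neither passed, although the arrays of the strains did not overlap at either stage. The standard error draws on the spread of all 8 groups, and the SD was 0.81 in Samarkand prepupae. In Oregon-R and Zimbabwe-109 the SD was 0.04 and 0.16 in larvae and 0.17 and 0.07 in prepupae. The transcript of CG7071 and Muted, a subunit of the BLOC-1 complex in the traffic of lysosome-related organelles, was lower at both stages, by differences of -0.35 ± 0.06 (limma adjusted p = 0.000109) and -0.33 ± 0.06 (limma adjusted p = 0.000237).

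None of the 4 named members of a list on histones and chromatin passed at either stage. His4r, a replacement histone H4, had differences of -0.07 in larvae and 0.13 in prepupae. HDAC3, a histone deacetylase, had -0.08 in larvae, and kis, a chromatin remodeller, had -0.11 in larvae and -0.06 in prepupae. SuUR, which restrains replication in polytene chromosomes, had 0.02 in larvae and 0.18 in prepupae (adjusted p = 0.0985). Without prepupal replicate 2 of Zimbabwe-109, whose value of 12.11 lay within the Oregon-R range while the other 2 read 12.48 and 12.33, SuUR passed in prepupae at 0.27 (adjusted p = 0.00867). Outside the list, the transcript of moi, a protein of the telomere cap, and Tgs1 was lower in larvae, with a difference of -0.16 ± 0.06 (limma adjusted p = 0.0432). That call was lost without any 1 of Oregon-R larval replicates 2, 3 and 5, Zimbabwe-109 larval replicates 3 and 4, Oregon-R prepupal replicate 5 and Zimbabwe-109 prepupal replicate 4, with differences from -0.17 to -0.13.

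Of 6 transcripts of RNA, transcription and translation factors, 2 passed in larvae and 2 in prepupae, all higher in Zimbabwe-109, with Mettl5 among the first. The transcript of Tfb5, a subunit of the transcription and repair factor TFIIH, and CG31917 was higher by 0.24 ± 0.06 in larvae (limma adjusted p = 0.00338) and 0.26 ± 0.06 in prepupae (limma adjusted p = 0.00215). That of Polr3K, a subunit of RNA polymerase III, and Tcs1 was higher in prepupae by 0.24 ± 0.07 (limma adjusted p = 0.0218), and its larval value of 0.18 did not pass (adjusted p = 0.0653). The larval value passed with normexp (0.33, adjusted p = 0.0405) and without Zimbabwe-109 larval replicate 3 (0.24, adjusted p = 0.0336). The prepupal call of Polr3K was lost without Oregon-R prepupal replicate 3 (0.19, adjusted p = 0.0931) or Zimbabwe-109 prepupal replicate 4 (0.19, adjusted p = 0.108). With normexp the differences were 0.38 and 0.40 for Tfb5 in larvae and prepupae and 0.42 for Polr3K in prepupae. The transcript of sle, a nucleolar protein, had -0.05 and 0.07, and those of Pbp49 and CG42516 and of CG7950 and Rpp14a did not pass. Without the 2 arrays the Pbp49 transcript passed in the lower direction in larvae (-0.16, adjusted p = 0.0208), and its change between stages passed at 0.26 (adjusted p = 0.0247).

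Of the genes of membrane anchors, the transcript read for CG42379, CG42380, CG42381 and PIG-M, a mannosyltransferase of glycosylphosphatidylinositol synthesis, was higher by 0.15 ± 0.04 in larvae (limma adjusted p = 0.00711) and 0.17 ± 0.04 in prepupae (limma adjusted p = 0.00426). Both calls were lost with median centring (adjusted p = 0.0616 and 0.0756). That of Tcs6 and PIG-P, the latter of the same pathway, was lower in larvae, with a difference of -0.18 ± 0.06 (limma adjusted p = 0.0377). It missed the threshold without Oregon-R larval replicate 2 or 3 or Zimbabwe-109 larval replicate 1 or 3 (differences from -0.19 to -0.12), and was -0.10 with the stage covariate (adjusted p = 0.424). Its change between stages passed without the 2 arrays (0.31, adjusted p = 0.0264). The transcript of Dpm2, of dolichol phosphate mannose synthase, and CG12016 did not pass.

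Of the transcripts with no role stated here, 2 were lower at both stages. That of CG5116 and CG42488 differed by -0.59 ± 0.07 in larvae (limma adjusted p = 2.67e-06) and -0.47 ± 0.07 in prepupae (limma adjusted p = 4.77e-05), or -0.88 and -0.70 with normexp. CG31178 read 11.92, 12.03 and 11.99 in Oregon-R larvae and 11.35, 11.51 and 11.47 in Zimbabwe-109 larvae, a difference of -0.53 ± 0.07 (limma adjusted p = 3.24e-06). In prepupae its difference was -0.22 ± 0.07 (limma adjusted p = 0.0167), which missed the threshold without the 2 arrays (-0.20, adjusted p = 0.0656), without Oregon-R prepupal replicate 3 (adjusted p = 0.0631), without Zimbabwe-109 prepupal replicate 2 (adjusted p = 0.0563) and without Zimbabwe-109 prepupal replicate 4 (adjusted p = 0.0631). Its arrays did not overlap at either stage. The transcript of CG6191 and CG45088 was higher in larvae by 0.20 ± 0.07 (limma adjusted p = 0.0439), a call lost without any 1 of Oregon-R larval replicates 2, 3 and 5, Zimbabwe-109 larval replicates 1 and 3, Oregon-R prepupal replicate 5 and Zimbabwe-109 prepupal replicate 4, with differences from 0.16 to 0.22.

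The remaining named transcripts passed at neither stage. The transcript of CG10570 and CG42502 read 13.68, 13.84 and 13.67 in Oregon-R larvae and 13.16, 13.74 and 13.19 in Zimbabwe-109 larvae. Its larval difference was -0.36 ± 0.18 (adjusted p = 0.126), and it passed at -0.55 without Zimbabwe-109 larval replicate 3 (adjusted p = 0.0239), the array that lay within the Oregon-R range. CG16974 (-0.16 in prepupae) passed without Oregon-R prepupal replicate 3 at -0.28 (adjusted p = 0.0411), as did the transcript of CG30100 and CG42372 (0.24 in prepupae) at 0.28 (adjusted p = 0.0482) and that of lmgA and lmgB (-0.17 in prepupae) at -0.24 (adjusted p = 0.0162). The Ppcdc transcript passed in prepupae without the same array, at 0.23 (adjusted p = 0.032). Single arrays of either strain thus decided several calls near the threshold. The larval and prepupal differences of fend, of Gint3 and CG42306, of CG42375 and CG9288, of CG32573 and CG42512, of Sws1 and Rad1, which act in DNA repair, and of CG33995, CG44001 and CG44000 were all between -0.18 and 0.14.

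**Figure D5:**
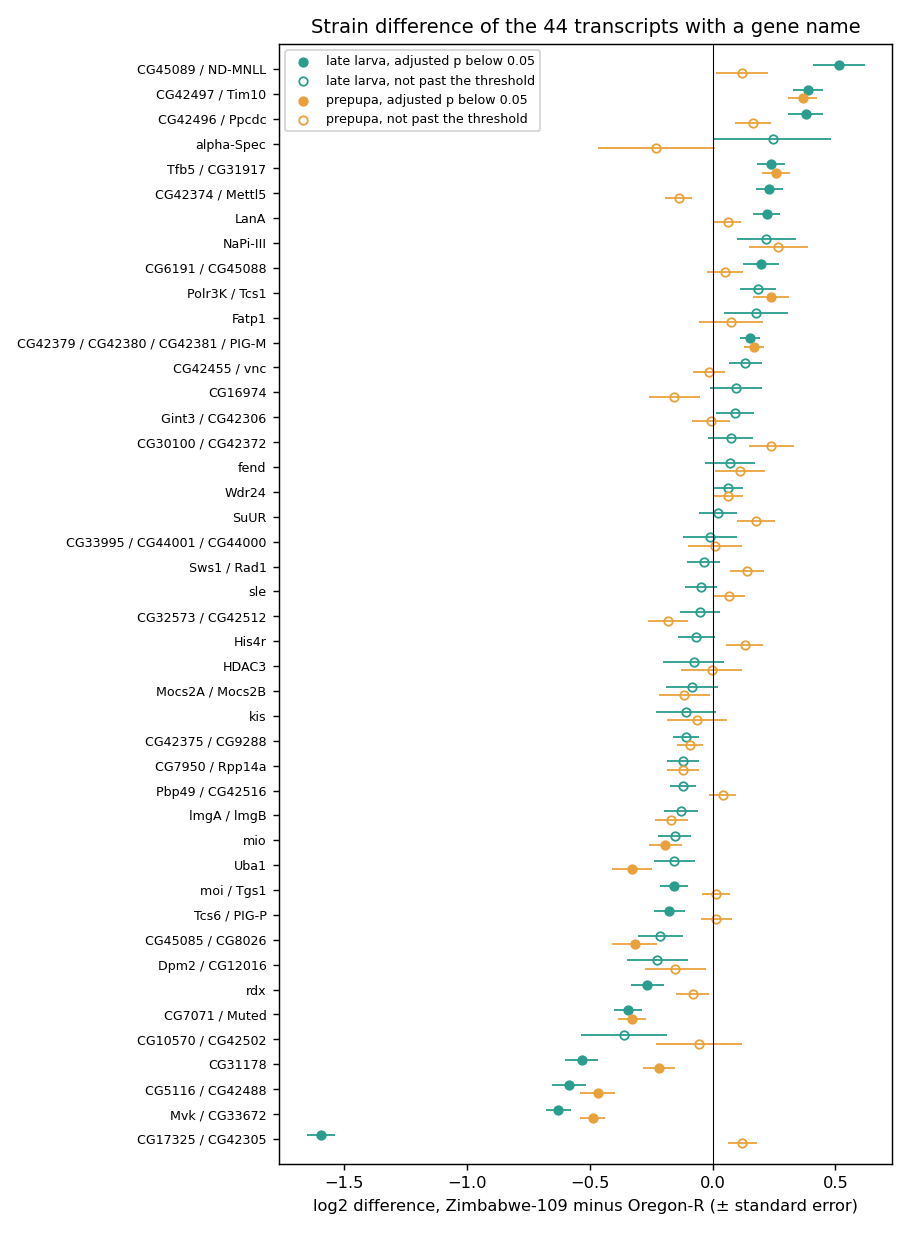
Difference between Zimbabwe-109 and Oregon-R (horizontal axis, log2, bars are standard errors) in late larvae and prepupae for the 44 transcripts with gene names (vertical axis), filled where the adjusted p was below 0.05. The transcript of CG17325 and CG42305 stands at -1.59 in larvae and 0.12 in prepupae, and the other 43 lie within 0.7 of 0.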

How the data were processed

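Messenger RNA was measured on 24 single-colour NimbleGen arrays of 4 strains and 2 stages. The authors deposited 1 table of linear, whole-number intensity values for 16637 transcripts. RMA, which adjusts background, normalizes and combines probes, is named without a version in the submitters' processing notes. The array medians differed (1936 to 3289), so log2 values were quantile normalized over all 24 arrays. Whether background had been subtracted, and the exact scale, are not given in the sources used here. Each group had 3 biological replicates, per the labels. Strain and stage were read from the labels, and replicate numbers from the final digit of each title.

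A limma model (version 3.58.1, R version 4.3.3) of all arrays held 1 mean for each of 8 groups, which left 16 residual degrees of freedom, with empirical Bayes moderation. The contrasts were the strain difference in larvae, in prepupae, and the second minus the first. All tests were two-sided, with Benjamini-Hochberg adjustment over all transcripts and a threshold of 0.05. No transcript was filtered out. Errors are standard errors of the fit unless given as SD. Arrays give no read depth, and their number limits the precision. The fits were also tested on simulated data.

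Gene names came from a RefSeq gene table of assembly Release 6, which lists 44 of the identifiers among its synonyms. Named were all identifiers with 1 gene, and by identifier the 2 widest differences in each direction in larvae, in prepupae and between stages that passed the test and did not overlap. The 28 identifiers with several genes lie outside that rule and were added with values known, and their grouping by function was made after values were seen. The comparison, the rule and the gene lists were chosen with earlier results of these data known. No paired samples were used: Oregon-R and Zimbabwe-109 share replicate number 3 in larvae and numbers 2 and 3 in prepupae, and the deviations of same-numbered arrays correlated at -0.11, -0.40 and -0.56. Alternatives were median centring, no scaling, normexp background correction (offset 50), scaling or fitting the 12 arrays alone, fitting the 6 arrays of a stage, leaving out the dimmest 30% or 50% of transcripts, each array or the 2 Zimbabwe-109 arrays, a trended robust prior, a replicate block, and stage position as a covariate.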

Additional observations from a re-analysis of the deposited data

Results flagged for a closer look

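The strain difference itself differed between larvae and prepupae, by a test of that change (limma, Benjamini-Hochberg adjustment), for 702 transcripts, and 7 results are given here for that reason, this count and 6 of the transcripts described. The change from the larval to the prepupal difference was 2.32 for FBtr0076666 and 2.22 for FBtr0071341, the widest in the positive direction. FBtr0076666 was dim in the prepupae of both strains, and its change was 2.01 without larval replicate 4 and prepupal replicate 2 of Zimbabwe-109. The change was -1.72 for FBtr0088189 and -1.70 for FBtr0079701, the widest in the negative direction. In both of these Zimbabwe-109 prepupal replicate 2 read about 1 above the other 2 arrays of its group. Among transcripts with gene names it was 1.72 for FBtr0081102 (CG17325 and CG42305) and -0.37 for FBtr0074991 (CG42374 and Mettl5). Groups of 3 arrays are too small for a test of single outlying arrays.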

How the results depend on the processing

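No called difference of a single transcript described changed sign under the alternatives run, but the balance of higher and lower calls did without scaling. There, 739 transcripts passed in larvae (540 higher, 199 lower), 383 in prepupae (128 higher, 255 lower), 65 for the stage difference and 199 at both stages with 1 sign, and the medians over all transcripts were 0.07 in larvae, -0.06 in prepupae and -0.12 for the stage difference, against -0.01, below 0.01 in size and 0.02 with scaling. Without the dimmest 50%, when fewer were tested, the counts were 2795 in larvae, 2202 in prepupae and 1261 at both stages. With the stage position as a covariate they were 2970, 2912 and 1562. The fit of the 6 arrays of a stage gave 2279 in prepupae and 1586 at both stages, and it could not be made for the stage difference, which uses 12. The stage difference was called for 400 transcripts with median centring, 310 with scaling and fit over the 12 arrays, 315 with the fit of the 12 arrays and 1334 without the 2 Zimbabwe-109 arrays. The cause of these changes was not tested. Leaving out 1 array at a time gave 4073 to 5657 in larvae, 3470 to 4814 in prepupae, 445 to 1312 for the stage difference and 2198 to 2832 at both stages. The mean stage position of Oregon-R larvae was 0.405 with transcripts of at least 1.5-fold change, and that of Oregon-R prepupae 0.949 without scaling. The other totals of these 4 comparisons stayed within 1.5 times of their main value. The classes of the sort moved further: prepupa-only was 655 with 6 arrays, 183 without scaling and 875 without the dimmest 50%, against 1656. Larva-only was 1364 with the stage covariate, 539 without scaling and 1468 without the dimmest 50%, against 2528. Opposite signs numbered 48 with median centring, 53 with the fit of the 12 arrays, 38 with 6 arrays, 44 with the covariate and 1 without scaling, against 85.

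With a replicate block the counts were 5337, 4227, 706 and 2553 for larvae, prepupae, the stage difference and both stages. Oregon-R and Zimbabwe-109 share only 1 number in larvae and 2 in prepupae, and the numbers did not pair the arrays. The block took 4 single calls below the threshold and brought 3 above it. Among the single transcripts described, 27 calls were lost without scaling, 14 with the stage covariate, 9 with median centring, 9 with the 6 arrays of a stage, 3 with each 12-array fit and 3 without the 2 arrays. None was lost with normexp or a trended robust prior. With either filter on dim transcripts none was lost among the transcripts kept, and those that a filter removed were not scored. Differences of dim transcripts depend on background, which moved the larval difference of FBtr0071727 from -2.34 to -1.79 and that of FBtr0112473 from 3.69 to 4.98.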

Other observations

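The strain difference changed between stages more often among brighter transcripts. With the transcripts split by mean level into 3 equal groups, the share was 2.07% in the dimmest, 3.5% in the middle and 7.09% in the brightest. The strain difference itself passed at similar rates in the 3 groups, at 29.6%, 33.5% and 32.9% in larvae and 25.6%, 27.6% and 27.1% in prepupae. Deviations of single arrays from their group mean were shared by some arrays of different groups. Over all transcripts, which are not independent replicates, those of Oregon-R prepupal replicate 3 and Zimbabwe-109 larval replicate 3 correlated at 0.76, and those of Zimbabwe-109 larval replicate 3 and prepupal replicate 3 at -0.63.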
